A study of Mus musculus with 24 samples.

Results

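The genes described here code for the proteins of the mitochondrial ribosome, measured as messenger RNA in mouse C2C12 myotubes. The rule for members used the symbol and a minimum level and no comparison between groups: protein-coding genes with a symbol starting with Mrpl or Mrps followed by a number, that reached 10 normalized counts in 6 or more of the 24 libraries. Of the 78 protein-coding genes with such a symbol all 78 met the minimum, out of 14541 genes tested and 55487 listed. By symbol 49 belong to the large subunit and 29 to the small subunit. A further 5 symbols of this form were pseudogenes and were left out.

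C2C12 is an established line of mouse myoblasts, which fuse into contracting myotubes when serum is withdrawn. All cells were wild type (WT), were differentiated under 5 % O2 and were sampled at day 5. In 5CTRL (here 5 % CTRL) and 1CTRL (1 % CTRL) myotubes spent 2 h in 5 % or 1 % O2 without stimulation, and in 5STIM (5 % STIM) and 1STIM (1 % STIM) they were stimulated electrically after the same 2 h. Each of the 4 groups had 6 libraries. The study's methods call them biological replicates without saying what was replicated, so p-values measure the spread between these libraries. In whole-culture RNA, fewer cells of a kind and less RNA per cell cannot be told apart.

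Mitochondrial ribosomes sit at the inner mitochondrial membrane and translate the few messenger RNAs of the mitochondrial genome, all of which code for subunits of oxidative phosphorylation. Their ribosomal RNA comes from the mitochondrial genome, whereas every one of their proteins is coded in the nucleus, made in the cytosol and imported. The large subunit forms the peptide bond and holds the exit tunnel, and the small subunit reads the messenger RNA. Some symbols are older than the structures: the proteins of Mrps30 and Mrps18a were later placed in the large subunit, and that of Mrps36 is now known as a subunit of the 2-oxoglutarate dehydrogenase complex. They were kept where their symbols put them.

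Libraries held 26541858 to 28173745 reads. Of 5 genes known to respond to hypoxia, Slc2a1, Adm, Ankrd37, Pfkfb3 and Vegfa, all were higher in 1 % CTRL than in 5 % CTRL, Slc2a1 with 2684 to 2996 normalized counts in 5 % CTRL and 12550 to 13238 in 1 % CTRL. After stimulation Vegfa went the other way, 0.09 lower at 1 % O2 on the log2 scale (adjusted p = 0.0169), while the other 4 were higher. Of 4 genes chosen to check stimulation, Cxcl1 (0 to 12.6 in 5 % CTRL and 2526 to 4673 in 5 % STIM) and Nr4a1 (log2 fold change 1.27) rose at 5 % O2. Arc fell by 0.61 (adjusted p = 0.00178), and Fos did not pass (−0.16, adjusted p = 0.403). All 10 myotube markers were present, with a summed count of 495630 to 546639 in 5 % CTRL and 434335 to 494524 in 1 % CTRL, and of 451494 to 526931 and 433432 to 476818 in the stimulated groups. At rest these sums did not overlap between O2 levels. Among them Myog had medians of 30738 in 5 % CTRL, 19609 in 1 % CTRL and 12403 in 1 % STIM. Not all myotube markers fell. From 5 % CTRL to 1 % CTRL the medians of Mylpf (50009 and 57252), Tnnc2 (19184 and 20223) and Acta1 (163614 and 164736) rose, and the others fell. Of 11 markers of leukocytes, endothelium, Schwann cells, adipocytes and epithelium, 8 had a mean count under 10, 1 was at 0 throughout, and the sum ran from 64.3 to 117. The summed count of 5 myoblast markers moved with the groups, at 5191 to 5719 in 5 % CTRL and 3885 to 4315 in 1 % CTRL, and at 4800.4 to 5252 and 3304 to 3558 in the stimulated groups. Within this list Myod1 fell, from a median of 3656 in 5 % CTRL to 2051 in 1 % CTRL, while Myf5 (154 and 229) and Pax7 (179 and 287) had higher medians in 1 % CTRL. The part of either list of markers in the results was not tested. Libraries also differed in a trend with gene length, most in replicate 1 of 1 % CTRL, which is given with the levels per library.

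The promoters of 5 members on which the results turn are shown to place the genes: the 3 whose response to stimulation differed between O2 levels, and 2 that were higher at 1 % O2 with and without stimulation. Each is the stretch of 250 bases before the RefSeq transcription start, on the gene's own strand, in the build GRCm38.p6. Capitals mark a match on either strand to 1 of 5 motifs, which were GCGCATGCG (NRF1), CCGGAAG (ETS factors), ATGGCGG (YY1), ACGTG (the core bound by HIF) and CACGTG (the E-box, which holds the HIF core).

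Mrps2, chr2:28467816-28468065, plus strand: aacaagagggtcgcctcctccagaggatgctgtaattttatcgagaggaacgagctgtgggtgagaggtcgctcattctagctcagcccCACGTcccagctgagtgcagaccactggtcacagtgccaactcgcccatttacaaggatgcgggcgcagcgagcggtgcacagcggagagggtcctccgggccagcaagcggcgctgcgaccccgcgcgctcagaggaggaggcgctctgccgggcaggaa

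Mrps30, chr13:118387253-118387502, minus strand: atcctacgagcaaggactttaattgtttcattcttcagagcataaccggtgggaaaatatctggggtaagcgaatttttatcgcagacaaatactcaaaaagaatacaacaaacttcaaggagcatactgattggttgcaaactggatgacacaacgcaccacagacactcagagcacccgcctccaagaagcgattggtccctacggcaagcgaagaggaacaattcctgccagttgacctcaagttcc

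Mrps18b, chr17:35916441-35916690, minus strand: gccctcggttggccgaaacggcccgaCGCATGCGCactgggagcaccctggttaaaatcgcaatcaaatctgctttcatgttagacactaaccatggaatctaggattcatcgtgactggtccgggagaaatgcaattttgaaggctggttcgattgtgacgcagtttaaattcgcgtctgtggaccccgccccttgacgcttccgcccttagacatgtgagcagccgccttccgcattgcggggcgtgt

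Mrpl10, chr11:97041332-97041581, plus strand: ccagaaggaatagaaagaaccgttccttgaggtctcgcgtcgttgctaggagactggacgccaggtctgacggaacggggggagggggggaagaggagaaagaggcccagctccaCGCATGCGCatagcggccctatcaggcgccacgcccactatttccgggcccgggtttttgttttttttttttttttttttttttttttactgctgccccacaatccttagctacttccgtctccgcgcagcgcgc

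Mrpl49, chr19:6057756-6058005, minus strand: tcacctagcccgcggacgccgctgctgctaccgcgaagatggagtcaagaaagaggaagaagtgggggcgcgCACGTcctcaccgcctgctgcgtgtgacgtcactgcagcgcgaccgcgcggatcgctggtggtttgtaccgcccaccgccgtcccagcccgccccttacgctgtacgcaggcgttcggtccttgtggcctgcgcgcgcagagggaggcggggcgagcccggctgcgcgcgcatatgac

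NRF1 is the nuclear respiratory factor, an activator of many nuclear genes for mitochondrial proteins. Its motif began 224 bases before the start of Mrps18b and 135 bases before that of Mrpl10. The HIF core began 161 bases before the start of Mrps2, which was lower at 1 % O2, and 178 bases before that of Mrpl49, which was higher. No motif matched in the 250 bases of Mrps30. RefSeq gave a promoter for 69 of the 78 members, searched from 250 bases before to 50 after the start. The NRF1 motif was in 7 of these (10.1 %), against 3.67 % of 10519 promoters of genes tested and 1.81 % of all 27025 promoters. The ETS motif was in 25 (36.2 %, against 17.9 % and 9.12 %) and the YY1 motif in 13 (18.8 %, against 8.15 % and 4.19 %). The HIF core was in 15 (21.7 %, against 25.7 % and 19.7 %) and the E-box in 5 (7.25 %, against 10.2 % and 7.24 %). These matches are letters in a window and were set against no measurement of binding.

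The messenger RNA of the members was present at intermediate levels, which differed far more between genes than between conditions. The mean normalized count over the 24 libraries ran from 23.7 to 1512 with a median of 560.1, beside a median of 513 over all genes tested. Per kilobase of exon, the scale on which genes can be compared, it ran from 34.3 to 2066 with a median of 363. The highest were Mrpl42 (2066 per kilobase), Mrps21 (1397), Mrpl33 (1207), Mrps18b (1147) and Mrpl20 (1097), and the lowest were Mrpl23 (34.3), Mrpl57 (35.7) and Mrps24 (49.5). The order depends on the length used, here that of the principal transcript. It is 666 bases for Mrpl42 and 478 for Mrpl33, whereas all annotated exons of these genes cover 3682 and 7326 bases. Mrpl42, the highest, had 1248 to 1452 normalized counts in 5 % CTRL (median 1372) and 1278 to 1518 in 1 % CTRL (median 1407). After stimulation it had 1268 to 1442 at 5 % O2 (median 1340.4) and 1262 to 1538 at 1 % O2 (median 1367). Its groups overlapped throughout, and it passed the test in none of the 5 comparisons. Together the members took 0.157 % to 0.190 % of the reads of a library.

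Exposure of resting myotubes to 1 % O2 moved the members in both directions and by small amounts. In 1 % CTRL against 5 % CTRL, 18 of 78 were higher (29.4 % of all genes tested were called higher) and 10 lower (30.5 % of all genes), at an adjusted p under 0.05 by limma over all genes tested. The 28 called are 35.9 % of the members, beside 59.9 % of all genes tested. The median log2 fold change was 0.05 over the members and 0.00 over all genes. Of the members 58 of 78 differed by less than 0.2 in either direction, beside 6480 of 14541 genes tested. Their median standard error of 0.0626 was close to that of all genes tested, 0.0604. When the libraries were rescaled to the same total, 30 members were higher and 4 lower. Without replicate 1 of 1 % CTRL they numbered 29 and 9. Rescaling multiplies all genes of a library by the same factor, so such counts are not particular to the members. Shares of all genes called under these changes are not given, here or below.

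Mrps2, a protein of the small subunit (chr2:28468066-28471178), fell most. It had 948 to 1009 normalized counts in 5 % CTRL, with a median of 979. Its range in 1 % CTRL was 690.0 to 771 with a median of 723. The groups did not overlap, and limma gave −0.43 on the log2 scale with a standard error of 0.0395 (adjusted p = 1.90e-11). Mrps30 (chr13:118378381-118387252), of which 9.35 % lies antisense to B430218F22Rik, had 464 to 537 with a median of 498 in 5 % CTRL, and 368 to 458 with a median of 415 in 1 % CTRL. Every library of 1 % CTRL was again below those of 5 % CTRL, with a log2 fold change of −0.25 (adjusted p = 7.54e-05). Mrpl35 fell by 0.22 on the log2 scale (adjusted p = 0.00140), from a median of 388 (355 to 401) to one of 335 (296 to 349), also without overlap. Mrpl44, whose protein carries a ribonuclease III-like fold, fell by 0.22 (adjusted p = 0.00446), and its groups overlapped (379 to 489 against 319.7 to 412). It did not pass once the libraries were rescaled to the same total (adjusted p = 0.0745). Mrpl19 fell by 0.18 (adjusted p = 0.000298), although 36.0 % of its exon lies antisense to exons of Gcfc2, whose reads may be counted with it. Mrpl47, of which 24.2 % lies antisense to Ndufb5, fell by 0.18 (adjusted p = 0.00279) but did not pass after rescaling (adjusted p = 0.102).

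The members that rose most had exon lengths under 1000 bases. Mrpl55, a protein found in mitochondrial but not in bacterial ribosomes (chr11:59202486-59206134), had 78.6 to 107 normalized counts in 5 % CTRL with a median of 92.6, and 121 to 148 in 1 % CTRL with a median of 136. The groups lay apart, by 0.54 on the log2 scale (standard error 0.0985, adjusted p = 1.41e-05). Mrpl36, a very small zinc-binding protein of the large subunit, went from a median of 229 (182 to 260.4) to one of 307 (235 to 329). These ranges overlapped, and the log2 fold change was 0.40 (adjusted p = 0.00449). Mrpl41 rose by 0.36 (adjusted p = 0.000157), from 268 to 353 up to 338 to 455. Mrps18c, the closest of the 3 Mrps18 paralogs to the bacterial protein, rose by 0.27 (adjusted p = 0.00575), and 23.2 % of its exon lies on the same strand as Gm43511. For Mrps36 (0.29, adjusted p = 0.0348) and Mrpl54 (0.27, adjusted p = 0.0385), leaving out any 1 of 7 libraries ended the call. Mrpl20 (0.18, adjusted p = 0.0415) lost it without any 1 of 8.

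**Figure D1:**
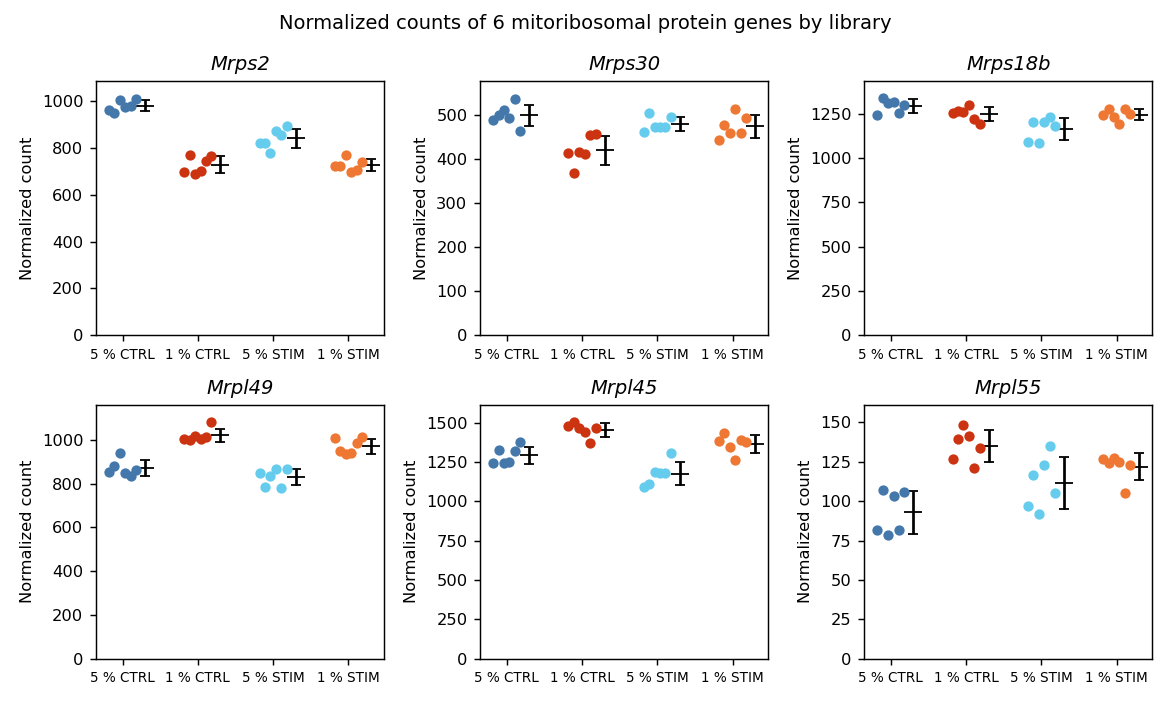
Normalized count (y axis, from 0) of 6 mitochondrial ribosomal protein genes in each library (points), with the mean and SD of the 6 libraries of each group beside them. Mrps2 was highest in 5 % CTRL (948 to 1009), intermediate in 5 % STIM (780.4 to 896) and lowest in both groups at 1 % O2.

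The stalk of the large subunit recruits the elongation factors. Of its proteins, Mrpl10, which anchors the stalk, rose from 619.6 to 758 in 5 % CTRL to 752 to 832 in 1 % CTRL (log2 fold change 0.23, adjusted p = 3.93e-05). Mrpl11, at the stalk base, rose by 0.21 (adjusted p = 0.000882). Mrpl12, the stalk protein itself, which also binds the mitochondrial RNA polymerase, had medians of 905 in 5 % CTRL and 962 in 1 % CTRL within ranges of 805 to 1145 and 693 to 1064. Its groups overlapped widely, and its standard error of 0.112 on the log2 scale was above the median of the members. At the exit tunnel, Mrpl45, which holds the ribosome to the inner membrane, rose by 0.17 (adjusted p = 0.000327), from 1242 to 1376 up to 1369.7 to 1502. Mrpl32, a protein matured by a protease of the inner membrane, fell by 0.16 (adjusted p = 0.00859), which did not pass after rescaling to the same total (adjusted p = 0.203). Mrpl3, close to the site of peptide bond formation, had medians of 879.5 and 859, and Mrpl58, a peptidyl-tRNA hydrolase built into the large subunit, of 225 and 224. Neither passed the test.

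In the small subunit, Mrps12, at the site where codons are read, ranged from 161 to 263 in 5 % CTRL and from 147 to 314 in 1 % CTRL, with a standard error of 0.172. It passed in none of the comparisons. Mrps7, a protein of the subunit's head, had medians of 928 and 892 (log2 fold change −0.13, adjusted p = 0.0606). It passed at −0.17 (adjusted p = 0.00104) once the fit held a covariate for the trend with gene length. Over 5 % CTRL, 1 % CTRL, 5 % STIM and 1 % STIM in turn, Mrps35 had medians of 333, 322, 309 and 324, and Mrps18a of 550.0, 602, 561 and 552. Neither passed in a comparison.

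The same question in stimulated myotubes gave fewer calls. In 1 % STIM against 5 % STIM, 13 of 78 were higher (29 % of all genes tested) and 5 lower (28.4 %). The 18 called are 23.1 % of the members, beside 57.4 % of all genes. The median log2 fold change was 0.01 over the members and 0.00 over all genes. Of the members 69 of 78 differed by less than 0.2, beside 6897 of 14541 genes tested. Rescaled to the same total, 22 were higher and 3 lower.

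This comparison shares no library with that of the resting myotubes, and their calls are set side by side. Both came from 1 fit with a spread estimated over all 24 libraries, so the calls are not independent. Of the 18 members higher at 1 % O2 at rest, 10 (55.6 %) were also called higher after stimulation, which is 76.9 % of the 13. Over all genes tested these shares were 77.7 % and 78.9 %. The 10 were Mrpl10, Mrpl18, Mrpl21, Mrpl24, Mrpl40, Mrpl45, Mrpl49, Mrpl50, Mrpl51 and Mrps25, of which Mrpl18, Mrpl24, Mrpl50 and Mrps25 are named for this overlap, after their values were seen. Of exon, 69.8 % of Mrps25, 26.3 % of Mrpl24 and 10.1 % of Mrpl18 lie antisense to Nr2c2, Rrnad1 and Tcp1, so these values are uncertain. In the resting comparison, leaving out any 1 of 17 libraries ended the call of Mrpl50. Some of these were stimulated libraries, which enter only through the shared fit. Mrpl18 lost its resting call without replicate 1 of 5 % CTRL. In the stimulated comparison, any 1 of 5 libraries ended the call of Mrps25 and any 1 of 4 that of Mrpl18. Those called lower in both were Mrps2 and Mrpl47 (20.0 % of 10 and 40.0 % of 5, against 75.8 % and 81.4 % over all genes).

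**Figure D2:**
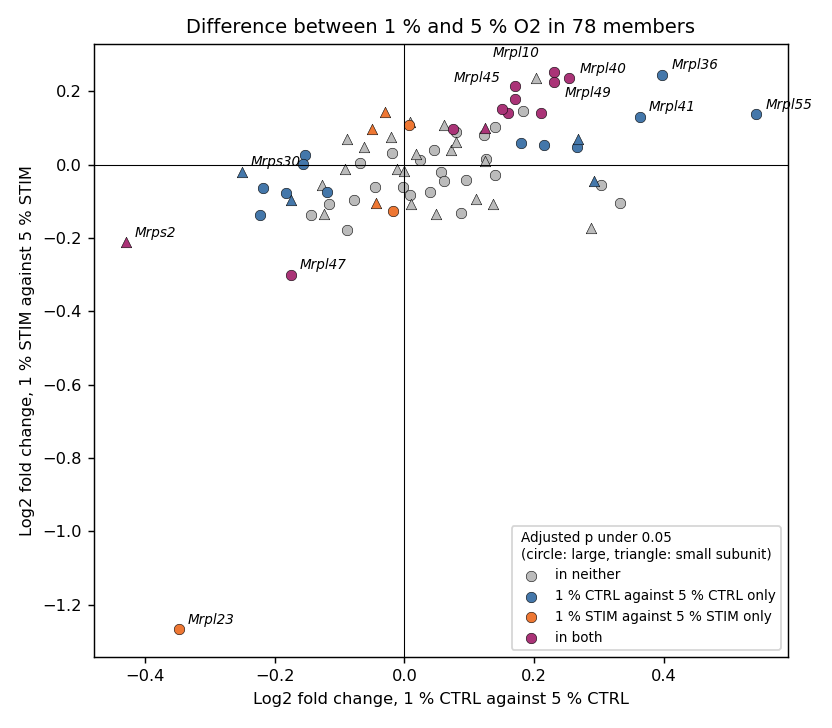
Log2 fold change of each of the 78 members between 1 % and 5 % O2 in resting (x axis) and stimulated (y axis) myotubes, with colour showing in which comparison the adjusted p was under 0.05. Most points lie within 0.2 of 0 on both axes, Mrps2 and Mrpl47 are lower and 10 members higher in both, and Mrpl23, with a mean count of 23.7, lies far below the rest.

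Mrpl49, a large subunit protein without a bacterial counterpart (chr19:6053622-6057785), was higher at 1 % O2 in both states without overlap. In resting myotubes it had 836 to 939 normalized counts at 5 % O2 and 1002 to 1079.9 at 1 %, and in stimulated ones 781 to 866 and 934 to 1012. The log2 fold changes were 0.23 (adjusted p = 2.84e-06) and 0.22 (adjusted p = 4.88e-06). Mrpl40 went from a range of 349 to 406 in 5 % STIM to 414 to 469.7 in 1 % STIM (0.24, adjusted p = 0.000258), and Mrpl10 from 603 to 682 to 712 to 798 (0.25, adjusted p = 1.14e-05). Neither gene's groups overlapped after stimulation, while both overlapped at rest. Of Mrpl10, 14.1 % of exon lies antisense to Gm11574. Mrpl45 rose by 0.22 (adjusted p = 1.72e-05), Mrpl21 by 0.18 (adjusted p = 0.000950) and Mrpl51 by 0.15 (adjusted p = 0.00110). Mrps27, which carries the RNA-binding repeats of the pentatricopeptide family, rose by 0.14 in the stimulated cells (adjusted p = 0.00394), with 602 to 682 in 5 % STIM and 671 to 760.2 in 1 % STIM. At rest its medians were 669 and 658, and 24.2 % of its exon lies antisense to 6430562O15Rik.

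Among those lower after stimulation at 1 % O2, Mrpl47 had 557 to 619.9 normalized counts in 5 % STIM and 442 to 560.2 in 1 % STIM (log2 fold change −0.30, adjusted p = 3.84e-06). Mrps2 had 780.4 to 896 in 5 % STIM and 698 to 768 in 1 % STIM, without overlap (−0.21, adjusted p = 2.34e-05). Mrpl33 (−0.13, adjusted p = 0.0231) and Mrps17 (−0.10, adjusted p = 0.0374) did not pass after rescaling to the same total (adjusted p = 0.344 and 0.545), nor with the length trend removed (0.765 and 0.0692). Mrpl23, at the exit of the tunnel, had the greatest fall of any member and the lowest counts: 18.4 to 55.2 in 5 % STIM and 8.57 to 19.5 in 1 % STIM, ranges that overlap (log2 fold change −1.27, standard error 0.334, adjusted p = 0.00198). At rest 1 library of 1 % CTRL had 68.8 while the median of that group was 16.5. The processed pseudogene Mrpl23-ps1 was counted at 253 to 322 in 5 % CTRL and 278 to 332 in 5 % STIM, above Mrpl23 in all of these libraries, and 10.1 % of the 75-base words of Mrpl23 occur in another gene. Reads of the pair may be divided between them in part, so the value for Mrpl23 is uncertain.

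Electrical stimulation changed few members at either O2 level. In 5 % STIM against 5 % CTRL, 3 were higher (9.44 % of all genes tested) and 4 lower (12 %), which makes 7 (8.97 %) beside 21.4 % of all genes. The median log2 fold change was −0.03, against −0.01 over all genes. An unadjusted p under 0.05 was found for 15 of 78 members, beside 4747 of 14541 genes tested. Rescaled to the same total, 4 were higher and 3 lower. Mrps2 fell by 0.22 (adjusted p = 6.61e-05), with no library of 5 % STIM (780.4 to 896) reaching those of 5 % CTRL (948 to 1009). Mrps18b (chr17:35910379-35916389), a paralog of Mrps18c with a place of its own in the small subunit, went from 1241 to 1341 down to 1083 to 1229, also without overlap (−0.15, adjusted p = 0.00139). Of its exon, 30.5 % lies antisense to Gm16279. Mrpl1, of the mobile stalk at which spent transfer RNA leaves, fell by 0.18 (adjusted p = 0.0137), from a median of 639 to one of 554. Mrpl45 fell by 0.14 (adjusted p = 0.0109), while stimulation at 1 % O2 gave −0.09 (adjusted p = 0.0943). It did not pass after rescaling to the same total (adjusted p = 0.0529).

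Mrpl13 rose from a range of 1049.5 to 1200.5 to one of 1168 to 1279 (log2 fold change 0.14, adjusted p = 0.00617). Mrps36 (0.34, adjusted p = 0.0410) and Mrps18c (0.23, adjusted p = 0.0394) also passed, but each lost the call when any 1 of 8 or of 6 libraries was left out. In a fit with a covariate for the length trend, Mrps36 had an adjusted p of 0.0718 and Mrps18c of 0.132.

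In 1 % STIM against 1 % CTRL, 2 members were higher (11.5 % of all genes tested) and 1 lower (10.8 %). The 3 are 3.85 % of the members, beside 22.3 % of all genes, and the median was −0.05 against 0.00. At an unadjusted p under 0.05 there were 8 of 78 members, beside 4710 of 14541 genes tested. Rescaled to the same total, 3 were higher. Mrps30 rose by 0.18 (adjusted p = 0.00985), from 368 to 458 in 1 % CTRL to 444 to 514 in 1 % STIM, and Mrps9 by 0.12 (adjusted p = 0.0292), from a median of 685 to one of 768. Mrpl53 fell by 0.18 (adjusted p = 0.0398), and 88.0 % of its exon lies on the same strand as exons of Gm42688. Without replicate 1 of 1 % CTRL, 2 members were higher and 6 lower. Leaving out replicate 3, 5 or 6 of 1 % CTRL, or replicate 2 or 3 of 1 % STIM, left 1 member.

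The response to stimulation differed between the O2 levels for 3 members, all from the Mrps symbols and all with a higher response at 1 % O2 (5.88 % of all genes tested differed in this direction, 5.43 % in the other and 11.3 % in all). They are 3.85 % of the members. An unadjusted p under 0.05 was found for 12 of 78 members, beside 3590 of 14541 genes tested. For Mrps2 stimulation gave −0.22 at 5 % O2 and 0.00 at 1 % O2, where its counts of 690.0 to 771 and 698 to 768 lay over each other. The difference came to 0.22 (standard error 0.0558, adjusted p = 0.00813). For Mrps30 the responses were −0.05 and 0.18 (difference 0.23, adjusted p = 0.0332), and for Mrps18b −0.15 and −0.01 (difference 0.15, adjusted p = 0.0484). Leaving out any 1 of 7 libraries ended the call for Mrps30 and any 1 of 16 that for Mrps18b, while Mrps2 passed without any single library (adjusted p 0.00454 to 0.0192). Without replicate 1 of 1 % CTRL the count was 4 in each direction, without replicate 3 of 5 % CTRL or replicate 2 of 1 % CTRL it was 1, and rescaled to the same total it was 2 higher and 1 lower. The edgeR quasi-likelihood test also gave 2 higher and 1 lower.

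The shares of each subunit called at 1 % O2 stand beside 59.9 % of all genes at rest and 57.4 % after stimulation. In the resting comparison 15 of 49 large subunit members were higher and 7 lower (44.9 % called), and 3 of 29 small subunit members were higher and 3 lower (20.7 %). The medians were 0.08 and 0.01 on the log2 scale. Among the small subunit calls are Mrps30 (lower) and Mrps36 (higher), whose proteins are now placed elsewhere. In the stimulated comparison the counts were 10 higher and 3 lower of 49 (26.5 %), and 3 higher and 2 lower of 29 (17.2 %), with medians of 0.01 and −0.01. Upon stimulation at 5 % O2 the medians were −0.03 in both subunits, and at 1 % O2 −0.07 in the large and −0.01 in the small. The difference between subunits was not tested, since genes of a subunit are not replicates.

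A level per library, the mean over the members of the log2 deviation from each gene's mean over the 24 libraries, overlapped between all groups. For the large subunit it was −0.02 ± 0.08 (SD, n = 6) in 5 % CTRL and 0.05 ± 0.11 in 1 % CTRL, and −0.01 ± 0.04 and −0.02 ± 0.07 in 5 % and 1 % STIM. For the small subunit it was −0.01 ± 0.06, 0.01 ± 0.13, 0.00 ± 0.02 and 0.00 ± 0.09. Replicate 1 of 1 % CTRL had the lowest level of all libraries for both subunits, at −0.15 and −0.24, and replicate 6 of the same group the highest, at 0.18 and 0.12.

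**Figure D3:**
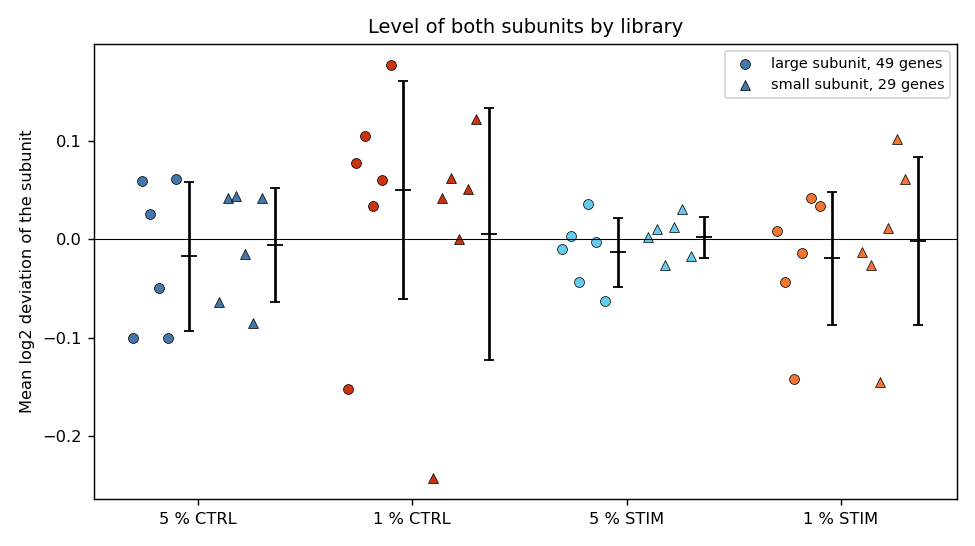
Mean log2 deviation of the 49 large subunit (circles) and 29 small subunit (triangles) members in each library, with the mean and SD of the 6 libraries of each group. All 4 groups overlap for both subunits, and within 1 % CTRL the libraries run from −0.15 to 0.18 for the large and from −0.24 to 0.12 for the small subunit.

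These levels moved with a trend in gene length between libraries. Members had a median exon length of 1302 bases, against 2874 over all genes tested. For each library the slope of the log2 deviation on log2 exon length was taken over the genes tested other than the members. It was highest in replicate 1 of 1 % CTRL (0.104), replicate 3 of 1 % STIM (0.0624), replicate 5 of 5 % CTRL (0.0479) and replicate 1 of 5 % CTRL (0.0405), where short genes had fewer counts for their mean. The same 4 libraries had the lowest levels over the 78 members, at −0.19, −0.14, −0.09 and −0.09. Replicate 6 of 1 % CTRL had the lowest slope (−0.0448) and the highest level (0.16). With the trend removed from each library, the level of replicate 1 of 1 % CTRL was −0.09 and that of its replicate 6 was 0.10. What set the slopes was not tested.

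**Figure D4:**
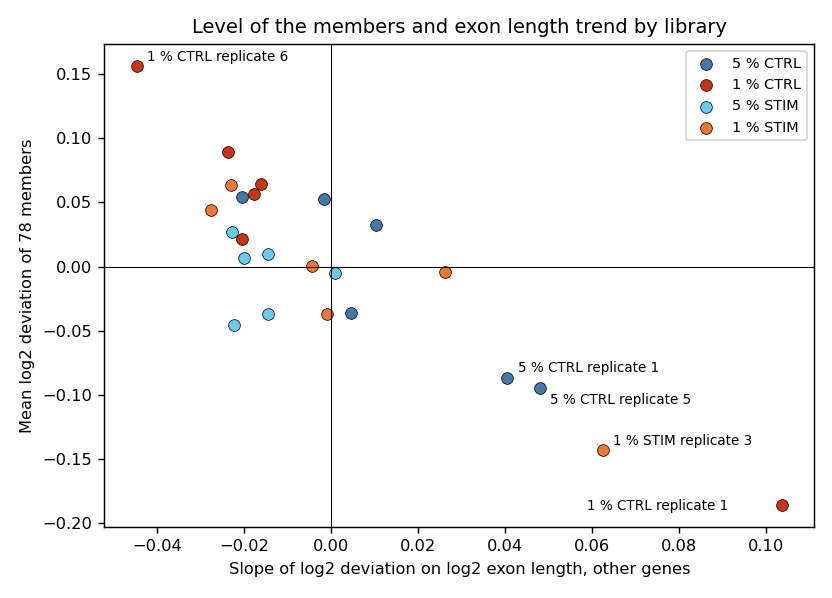
Mean log2 deviation of the 78 members (y axis) against the slope of log2 deviation on log2 exon length over the other genes tested (x axis), 1 point per library. The 4 libraries with the highest slopes (0.0405 to 0.104) have the lowest levels (−0.09 to −0.19).

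Members of all lengths were among those higher at rest, and the median was highest in the short ones. In 1 % CTRL against 5 % CTRL, 21 of 25 members under 1000 bases lay above 0 (median log2 fold change 0.14), and 7 (28 %) passed, each higher. Among all 1239 genes of that length 737 lay above 0, with a median of 0.05, and 25.6 % passed. Of 28 members from 1000 to 2000 bases 15 lay above 0 (median 0.01), with 6 higher and 3 lower, or 32.1 % beside 49 % of all genes of that length. The 25 members over 2000 bases had 11 above 0 (median −0.02), with 5 higher and 7 lower, or 48 % beside 67.4 %. After removal of the trend, 18 of 25 short members lay above 0 with a median of 0.07, and 7 passed, again higher. Over the 78 members removal gave 17 higher and 15 lower, with a median of 0.01. The difference in the response to stimulation between O2 levels leaned the other way, with 1 of 25 short members above 0 (median −0.15). Over all 1239 genes of that length 413 lay above 0, with a median of −0.10. After removal 9 of 25 short members lay above 0 with a median of −0.04. Stimulation at 5 % O2 gave short members a median of 0.10 before removal and 0.01 after it.

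**Figure D5:**
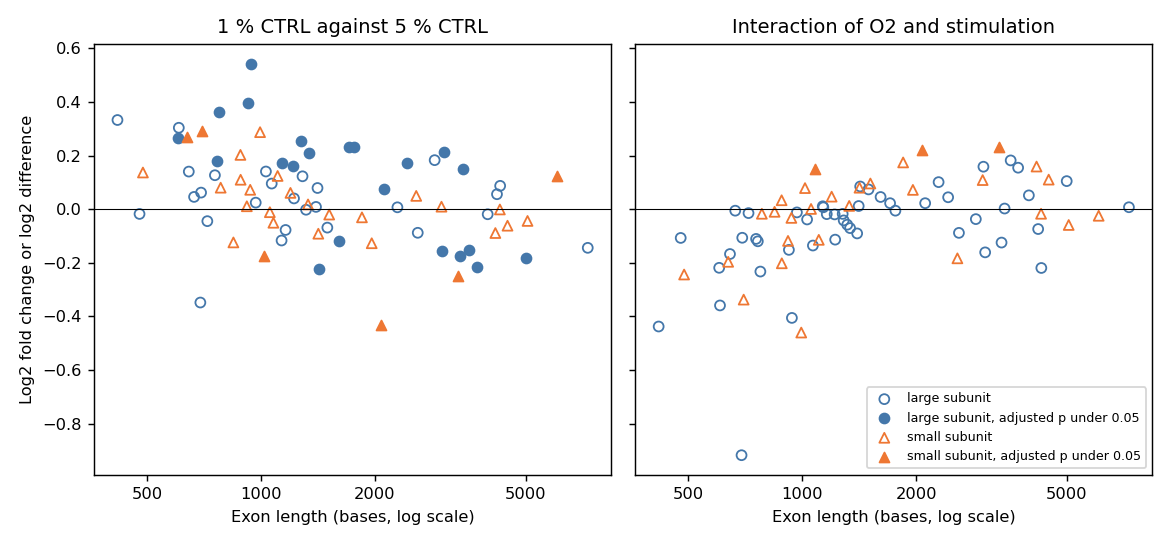
Log2 fold change in 1 % CTRL against 5 % CTRL (left) and log2 difference in the response to stimulation between 1 % and 5 % O2 (right) of the 78 members against exon length (log scale), with filled symbols at an adjusted p under 0.05. Members under 1000 bases lie mostly above 0 on the left (21 of 25) and below 0 on the right, where 1 of 25 lies above 0. Of all 1239 genes of that length, which are not drawn, 737 lay above 0 in the left comparison and 413 in the right.

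Genes that work around the mitochondrial ribosome stand beside the members. Proteins of the ribosome without an Mrp symbol formed a list of 5. In 1 % CTRL against 5 % CTRL, 2 of them were higher and 2 lower (median log2 fold change 0.09). That is 80 % of this short list, beside 59.9 % of all genes. Dap3, a GTP-binding protein of the small subunit, rose from 769 to 832 up to 881 to 942 without overlap (0.20, adjusted p = 1.10e-05). Gadd45gip1, a protein of the large subunit, fell from a median of 666 to one of 507 (−0.46, adjusted p = 0.000922). Chchd1 rose by 0.25 (adjusted p = 0.0211) and Ptcd3, a pentatricopeptide repeat protein of the small subunit, fell by 0.11 (adjusted p = 0.00561). In the stimulated cells Dap3 was higher by 0.12 (adjusted p = 0.00335) and Gadd45gip1 fell by 0.35 (adjusted p = 0.00819).

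Of 25 genes for ribosome assembly and maturation of the ribosomal RNA, 1 was higher and 14 lower in 1 % CTRL against 5 % CTRL (median −0.16), and 3 were higher and 9 lower in 1 % STIM against 5 % STIM (median −0.09). The shares called, 60 % and 48 %, stand beside 59.9 % and 57.4 % of all genes. Mrm3, which methylates the ribosomal RNA of the large subunit, had 320.2 to 382 normalized counts in 5 % CTRL and 209.5 to 262 in 1 % CTRL, without overlap. It fell by 0.58 at rest (adjusted p = 2.68e-09) and by 0.55 after stimulation (adjusted p = 9.88e-09). Mrm2, another methyltransferase of this RNA, fell by 0.55 at rest (adjusted p = 1.58e-06). Rpusd4, a pseudouridine synthase, fell by 0.43 (adjusted p = 1.99e-07) and Ddx28, a helicase of the DEAD-box family, by 0.40 (adjusted p = 8.64e-05). The gene that rose was Tfb1m, named after its values were seen, which dimethylates the ribosomal RNA of the small subunit. It was higher by 0.38 at rest (adjusted p = 0.000802) and by 0.37 after stimulation (adjusted p = 0.00107). Upon stimulation 4 of the 25 fell at 5 % O2 (16 % called, beside 21.4 % of all genes). At 1 % O2, 1 rose and 1 fell (8 %, beside 22.3 %).

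Of 19 genes for mitochondrial transcription and RNA stability, 3 were higher and 12 lower in 1 % CTRL against 5 % CTRL (median −0.30), and 3 higher and 9 lower in 1 % STIM against 5 % STIM (median −0.14). These are 78.9 % and 63.2 % of the list, beside 59.9 % and 57.4 % of all genes. Trmt10c, a subunit of the mitochondrial ribonuclease P, went from 1208 to 1323 down to 677 to 811 at rest (−0.78, adjusted p = 9.03e-17). Fastkd5, needed for processing of mitochondrial transcripts, fell by 0.66 at rest (adjusted p = 7.74e-13) and, upon stimulation at 5 % O2, by 0.27 (adjusted p = 0.000254). Fastkd3, of the same family, fell by 0.58 (adjusted p = 8.32e-09). Slirp, the RNA-binding partner of Lrpprc, rose by 0.51 at rest (adjusted p = 0.00548).

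Of 14 translation factors 6 were higher and 2 lower in 1 % CTRL against 5 % CTRL (median 0.12), and 7 were higher in 1 % STIM against 5 % STIM (median 0.19). With 57.1 % and 50 % called, the list stands beside 59.9 % and 57.4 % of all genes. Pdf, which removes the formyl group from new mitochondrial proteins, fell by 0.42 at rest (adjusted p = 0.0135). Metap1d, which then removes the first methionine, rose by 0.26 (adjusted p = 0.0179). Mtif3, an initiation factor, had 333 to 451 normalized counts in 5 % STIM and 418 to 515 in 1 % STIM, ranges that overlap (0.26, adjusted p = 0.000791). Mtfmt, which formylates the initiator transfer RNA, was higher by 0.24 in the same comparison (adjusted p = 0.0148). Upon stimulation at 5 % O2, 4 of the 14 factors fell (28.6 % called, beside 21.4 % of all genes).

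Beside the members stand the 81 genes for cytosolic ribosomal proteins and the 80 for nuclear-encoded subunits of the respiratory chain. In 1 % CTRL against 5 % CTRL, 13 of the former and 8 of the latter were called (59.9 % of all genes), with medians of 0.11 and 0.05. Upon stimulation at 5 % O2 these counts were 9 and 4 (11.1 % and 5 %, beside 21.4 % of all genes). The medians were 0.07 and 0.13, where the members had −0.03. These lists were lowest in the same library as the members, replicate 1 of 1 % CTRL, at −0.40 and −0.38. The differences between the lists were not tested.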

How the data were processed

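RNA of 24 libraries was sequenced with a stranded Illumina mRNA kit. Per the labels and the study's methods, the authors checked reads with FastQC 0.11.7, aligned them to GRCm38 with STAR 2.5.4b, counted genes with RSEM 1.3.0 and divided counts by DESeq2 size factors; the deposited values are these normalized counts, a signal and not raw reads. Counting is not stated to use strand. A second deposited table holds the authors' own comparisons and was not used. Whole reads were recovered from the step between values (100 % within 0.01), giving 26541858 to 28173745 per library, so a normalized count of 10 rests on about 10 reads. Differences between replicates exceeded sampling noise (chi-square per gene 2.54 to 21.3 over 60 pairs), so no pair looked like 1 library deposited again; this does not show that libraries are independent.

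Genes with 10 or more normalized counts in 6 libraries were tested with limma 3.58.1 on log2(normalized count + 1), with trend and robust settings, in 1 fit of the 4 groups. P-values were adjusted by Benjamini-Hochberg over 14541 genes, with calls under 0.05. Fold changes are on that log2 scale, which understates low genes. The interaction is the response to stimulation at 1 % O2 minus that at 5 % O2. Alternatives used edgeR 4.0.16, DESeq2 1.42.0 and limma voom on recovered reads. Tests were checked on simulated data. GENCODE M21 (GRCm38) matched 99.5 % of genes and gave coordinates, overlaps and the exon length of the principal transcript; that definition was set once the files were open, before any fit was seen. Of the members, 31 share over 5 % of their exon or of their 75-base words with another gene. Promoters are from RefSeq. Named were, per comparison, up to 6 called members with the largest rise and 6 with the largest fall, the 5 highest and 3 lowest per kilobase, 17 with known roles, and called genes of the 4 lists. Members and lists were chosen with earlier results of these data known. Replicate numbers were not taken to pair samples.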

Additional observations from a re-analysis of the deposited data

Results flagged for a closer look

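The response to stimulation differed between the O2 levels, by the interaction term, for Mrps30 (0.23), Mrps2 (0.22) and Mrps18b (0.15).

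In 19 of 180 groups of 6 libraries tested, the highest or lowest library lay far from the nearest other; chance flags about 1 in 20. Replicate 1 of 1 % CTRL accounted for 7 of them. It was lowest in the level of the small subunit (−0.24) and in normalized counts of Mrpl20 (736), Mrpl36 (235), Mrps18a (486), Mrps21 (400.3) and Mrps7 (685), and highest in the slope on exon length (0.104). Replicate 6 of the same group was highest for Mrpl23 (68.8) and Mrpl49 (1079.9).

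Among stimulated libraries, replicate 6 of 5 % STIM was highest for Mrpl1 (648) and Mrpl21 (716), and replicate 1 of that group had the highest slope on exon length (0.000891). In 1 % STIM, replicate 3 was lowest for Mrpl11 (480.4) and Mrpl32 (584), replicate 4 highest for Mrpl47 (560.2), replicate 5 lowest for Mrpl55 (105) and replicate 2 highest for Mrps27 (760.2). In 5 % CTRL, replicate 3 was highest for Mrpl19 (904) and replicate 6 lowest for Mrps9 (715).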

How the results depend on the processing

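Counts of called members kept within 1.5 times their value, and medians within the SD between replicates, under all alternatives run other than those given here. This SD was pooled from those of the level per library, 0.0284 in 5 % STIM to 0.117 in 1 % CTRL. The medians lay so close to 0 that they could change sign and still count as kept. Rescaling to the same total moved the median of 1 % CTRL against 5 % CTRL from 0.05 to 0.13. At an adjusted p under 0.01, 3 members were called in 5 % STIM against 5 % CTRL, 1 in 1 % STIM against 1 % CTRL, 11 in 1 % STIM against 5 % STIM and 1 in the interaction. With no filter on low counts, 1 member was called in 1 % STIM against 1 % CTRL and 1 in the interaction. DESeq2 called 5 in the interaction. Rescaling multiplies all genes of a library by the same factor, and a stricter threshold can only remove calls. The cause of the other changes was not tested.

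Leaving out each library in turn gave 23 to 38 called members in 1 % CTRL against 5 % CTRL, 5 to 9 in 5 % STIM against 5 % CTRL, 1 to 8 in 1 % STIM against 1 % CTRL, 14 to 20 in 1 % STIM against 5 % STIM and 1 to 8 in the interaction. The count of 8 in each of 2 comparisons came without replicate 1 of 1 % CTRL. In the same order, medians lay between 0.02 and 0.09, −0.04 and −0.01, −0.09 and −0.02, −0.01 and 0.04, and −0.07 and 0.01.

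The replicate numbers were not taken to pair the samples. Of 24 correlations between libraries of the same number, 2 were over 0.1 (−0.148 to 0.155). For 7 of 24 libraries the highest correlation with another group was with their own number. These values cannot exclude a pairing, since the matches to be had by chance were not worked out. With the number as a replicate block, 28, 7, 2, 18 and 2 members were called, in the order of the comparisons above, and the calls lost among named genes were those of Mrpl53 and Mrps18b. Of 48 calls of named members, 30 passed under all 12 alternatives and 18 missed the threshold under at least 1; none changed direction. For the 157 values of named members without a call, 38 pairs of value and setting gave a call and 81 changed sign without one. Removing the trend with the union of exons, and keeping the 47 members with at most 5 % of exon or 75-base words shared (medians 0.06, −0.04, −0.05, 0.04 and −0.02), were chosen after seeing the data. For the interaction, a fit of the compared groups alone could not be made. Depth limits members with few counts, among them Mrpl23 (mean normalized count 23.7) and Mrpl34 (53.9). The lowest counts per kilobase, which also depend on the length used, were those of Mrpl23, Mrpl57 and Mrps24.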
